A study of Bos taurus with 6 samples.

Results

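The triglyceride lipases and their cofactors were followed in the longissimus dorsi muscle of cattle as a set of 7 genes, chosen by name: LIPE, PNPLA2, PNPLA3, MGLL, ABHD5, G0S2 and AQP7. Of the 17282 named genes listed with a value in at least 1 animal, 6 belonged to the set, because PNPLA3 was listed in no library. All 6 entered the test between breeds, which covered 9779 genes. The comparison was between 3 Shandong black cattle, a breed derived from Japanese black, Luxi and Bohai black cattle, and 3 Luxi cattle, all 18 months old. One RNA-Seq library was made per animal, no treatment was given, and the animals of the breeds came from different companies. The study asked how genes of fat metabolism differ between the breeds.

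Triglyceride stored in lipid droplets is broken down one fatty acid at a time. PNPLA2, also called adipose triglyceride lipase, removes the first fatty acid, LIPE (hormone-sensitive lipase) the next, and MGLL (monoglyceride lipase) the last, which leaves glycerol. ABHD5 (CGI-58) activates PNPLA2 and G0S2 inhibits it, PNPLA3 is a relative of PNPLA2, and AQP7 is a membrane channel through which glycerol leaves the cell. The pathway is best known from adipocytes, but muscle fibres also hold lipid droplets and express several of these genes, so a value from whole muscle adds both sources.

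LIPE fell in Luxi muscle and was the 1 member of the 6 tested that passed the test. Mean levels of G0S2, AQP7, PNPLA2 and ABHD5 were also lower in Luxi, with overlapping ranges for all of these but G0S2, and that of MGLL was slightly higher, but none of these 5 passed. FPKM is the number of fragments per kilobase of transcript, scaled to the size of the library, and fold changes are Luxi over Shandong black on log2(FPKM + 1). A gene was called when its adjusted p in limma was under 0.05 and its log2 fold change was 1 or more in either direction. Of all genes tested, 2.48% were called, 0.951% as lower (93 genes) and 1.53% as higher (150 genes) in Luxi, a split that turned to 146 lower and 116 higher with size factors. An unadjusted p under 0.05 in limma was found for LIPE, G0S2 and AQP7, 3 of the 6 members, and for 21.8% of all genes tested. Ranges of the breeds did not overlap for 3 of the 6 members, namely LIPE and G0S2 (lower in Luxi) and MGLL (higher in Luxi). The same held for 29.1% of all genes tested, 9.09% being lower and 20% higher in Luxi. The median log2 fold change was -0.74 over the 6 members and 0.13 over all genes tested. That overall shift came to 0.0169 after scaling with size factors, and the directions of the 6 members were the same with it.

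**Figure D1:**
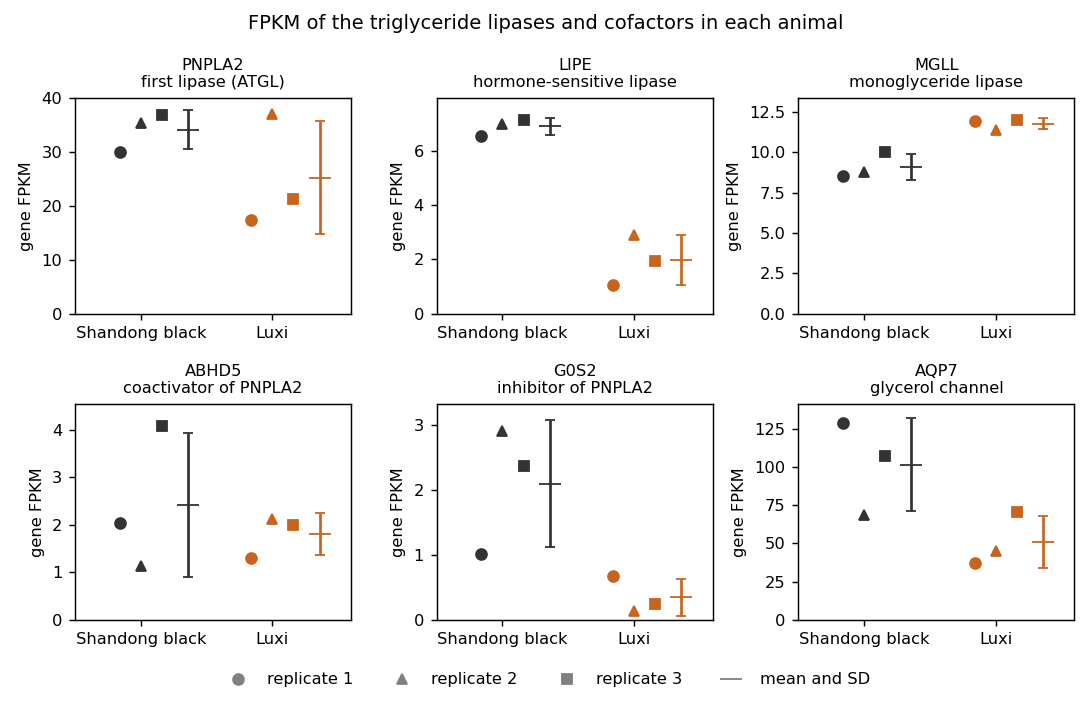
Gene FPKM (vertical axis, linear from 0) of the 6 listed members in each animal, 1 panel per gene, with Shandong black cattle in grey and Luxi cattle in orange. Symbols are the replicate numbers and bars give mean and SD (n = 3); the LIPE and G0S2 points of Luxi cattle lie below all Shandong black points, and those of MGLL above.

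The libraries held 14.1 to 14.6 gigabases of aligned sequence in Shandong black cattle and 17.5 to 17.99 in Luxi cattle. Between 65.3 and 73.9% of a library's FPKM lay on reference transcripts. Other properties of the tissue differed between the breeds too. The summed FPKM of 9 adipocyte markers, all of them listed, was 119 to 187 in Shandong black and 7.14 to 21.4 in Luxi muscle, and 7 of the 8 tested had lower, non-overlapping values in Luxi. The adipocyte genes ADIPOQ and FABP4 were still listed in every Luxi animal, whereas LEP was not listed in Luxi 1. Slow-fibre markers summed to 32020 to 40589 against 9060 to 22504, but of the 9 tested 5 were lower in Luxi without overlap and 1, MYL3, was higher. Fast-fibre markers summed to 1796 to 4417 against 4164 to 25360, ranges that overlapped. All 8 tested were fitted higher in Luxi, 3 of them without overlap. Fibroblast markers summed to 165 to 204 against 398 to 521, and of the 8 tested 4 were higher without overlap and 1, DPT, was lower. Endothelial markers summed to 24.3 to 25.8 against 30.6 to 90.4, with 4 of 8 tested higher in Luxi without overlap. XIST, a transcript of the inactive X chromosome of females, had an FPKM of 4.83 to 14.0 in Shandong black cattle. It was not listed in Luxi 1 and Luxi 2 and stood at 0.207 in Luxi 3. The 5 Y-linked genes looked for were listed in no library. Whether the reference holds these 5 genes was not checked. A gene outside it cannot be listed, so their absence says nothing about sex. The labels give no sex, and a difference of sex and one of breed cannot be told apart here. In whole muscle, fewer cells of a type and less RNA per cell cannot be told apart either.

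PNPLA2, the lipase of the first step, had the highest FPKM of the 3 lipases in all 6 animals. It lies at chr29:50548339-50553859 on the minus strand (ARS-UCD1.2, as are all positions here). Its FPKM was 30.1, 35.4 and 36.9 in Shandong black 1 to 3 and 17.3, 37.1 and 21.2 in Luxi 1 to 3. Luxi 2 had the highest level of all 6 animals and the other Luxi animals the lowest, so the ranges overlapped. Means were 34.1 ± 3.60 and 25.2 ± 10.5 (SD, n = 3 each). The log2 fold change was -0.49 with a 95% confidence interval from -1.21 to 0.23, and limma gave an adjusted p of 0.388. Transcript rna74987, with 9 exons, carried 99.6% or more of the PNPLA2 FPKM in every animal.

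ABHD5, the coactivator of PNPLA2, lies at chr22:15584972-15626752 on the plus strand. Its FPKM was 2.05, 1.13 and 4.08 in Shandong black 1 to 3, and 1.296, 2.12 and 1.996 in Luxi 1 to 3. The Shandong black animals held both the lowest and the highest level. Assembled transcripts of the same strand with less than 50% of their bases on ABHD5 exons were left out. They summed to 0.626, 0.936 and 0.557 FPKM in Shandong black 1 to 3 and to 0.831, 0.245 and 0 in Luxi 1 to 3. That was 82.6% of the ABHD5 value in Shandong black 2 and 64.1% in Luxi 1, so which animal was lowest depends on this rule. The log2 fold change was -0.21 (95% confidence interval -0.96 to 0.54, limma adjusted p = 0.740), and without Shandong black 3 it turned to 0.12. In Shandong black 1, 49.6% of the ABHD5 value came from an assembled transcript without a name, while rna61389 carried between 85.0 and 100% in the other 5 animals.

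G0S2, the inhibitor of PNPLA2, is a small gene at chr16:73640793-73641791 on the minus strand. Its FPKM was 1.01, 2.91 and 2.36 in Shandong black 1 to 3 and 0.672, 0.130 and 0.250 in Luxi 1 to 3. All Luxi animals lay below all Shandong black animals, with means of 0.351 ± 0.285 and 2.095 ± 0.981 (SD, n = 3 each). The log2 fold change was -1.16 (SE 0.29, 95% confidence interval -1.84 to -0.48), which did not pass the test (limma adjusted p = 0.0835). At such low levels the size depended on the scale: it was -2.35 with a pseudocount of 0.1 and -1.76 in TPM, and also not called. The evidence in Luxi was thin, because only 1.95 to 2.998 kilobases of aligned sequence stood behind each G0S2 value there, against 11.3 to 29.2 in Shandong black. The reference transcript of G0S2 had no value in Luxi 1 and Luxi 3, where the FPKM came from assembled fragments on its exons.

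LIPE, the lipase that takes over from PNPLA2, lies at chr18:50886651-50907201 on the plus strand. The FPKM in Shandong black 1 to 3 was 6.56, 7.0 and 7.15. In Luxi 1 to 3 it was 1.05, 2.91 and 1.95. The highest Luxi animal thus had less LIPE than the lowest Shandong black animal, and the Luxi animals were spread more widely. Means were 6.90 ± 0.304 in Shandong black and 1.97 ± 0.930 in Luxi (SD, n = 3 each), a ratio of 3.51. The log2 fold change was -1.46 (SE 0.25, 95% confidence interval -2.04 to -0.88), and limma gave an adjusted p of 0.0334. The study named LIPE among its differentially expressed genes from the same animals, so the call is not independent of its choice. Between 52.4 and 277 kilobases of aligned sequence stood behind each LIPE value.

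The LIPE call depended on which animals were kept. On leaving out each animal in turn, the log2 fold change stayed between -1.68 and -1.22, and limma's adjusted p ranged from 0.0199 to 0.154. LIPE remained called without Luxi 1 or without Luxi 2. It was not called without Luxi 3 or without any 1 of the Shandong black animals. Over all genes, 10, 182 and 3 were called without Shandong black 1, 2 and 3. Without Luxi 1, 2 and 3 the counts were 590, 46 and 88, against 243 with all animals. The adipocyte marker sum moved in the same direction as LIPE and the ranges of neither overlapped between breeds; its part in the LIPE difference, or in those of G0S2 and AQP7, was not tested.

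By StringTie's split of reads, the transcript with most of the LIPE FPKM in Shandong black was lower in every Luxi animal. Transcript rna51460, which starts at position 50895719 and has 10 exons, had 5.15, 5.76 and 6.24 FPKM in Shandong black 1 to 3, and 0.313, 1.93 and 1.02 in Luxi 1 to 3. It carried 78.4 to 87.3% of the LIPE FPKM in Shandong black and 29.9 to 66.4% in Luxi, so neither its level nor its share overlapped between breeds. Transcript rna51459, which starts upstream at position 50889660, had 0.786, 0.000700 and 0.903 FPKM in Shandong black and 0.478, 0.335 and 0.928 in Luxi. The level of rna51459 therefore overlapped between breeds. These shares are StringTie's split of reads among overlapping transcripts, and they were not tested. Assembled transcripts without a name added 24.0% of the LIPE value in Luxi 1, 22.1% in Luxi 2 and 14.0% in Shandong black 2. The assembled transcript of Luxi 1, with 7 exons at positions 50899799 to 50907094, had 0.251 FPKM. It lies within the span of rna51460, so some of the rna51460 level in Luxi 1 may be counted there. The assembled transcript of Luxi 2, with 2 exons at positions 50886491 to 50891487, ends before the start of rna51460. Its share of bases on LIPE exons was 0.525. On reference transcripts alone the LIPE FPKM of Luxi 1, Luxi 2 and Shandong black 2 was 0.797, 2.27 and 6.02. The assembled transcript of Shandong black 2, at 0.977 FPKM, starts at position 50889730, close to the start of rna51459, so the near-zero rna51459 value there does not show that such a form was absent.

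**Figure D2:**
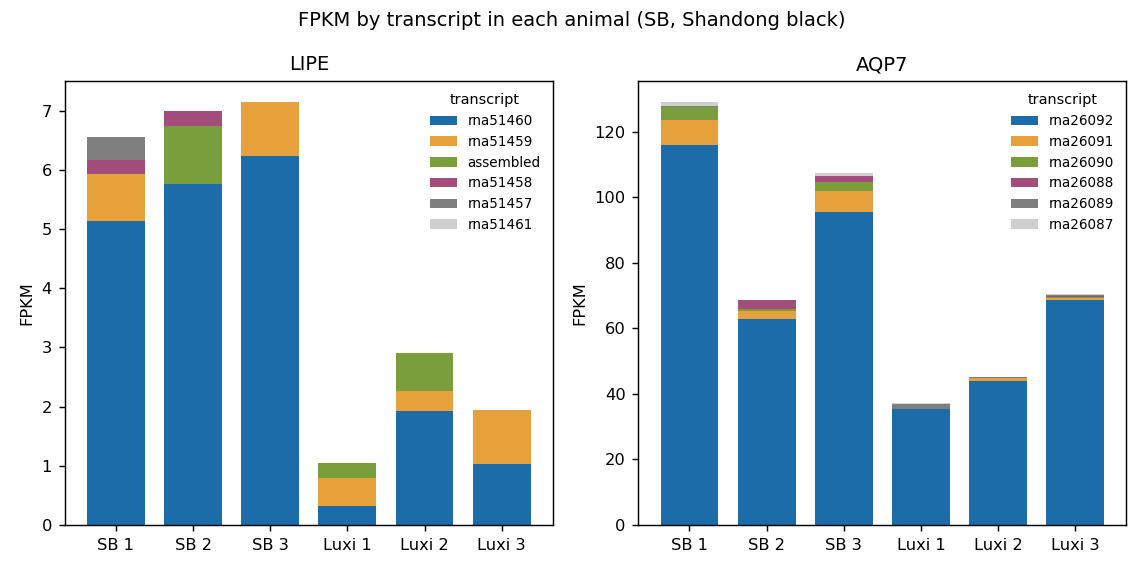
FPKM (vertical axis, linear from 0) of LIPE on the left and AQP7 on the right in each of the 6 animals, stacked by reference transcript, with unnamed assembled transcripts in 1 class. The rna51460 block shrinks in all Luxi animals while the rna51459 block does not follow the breeds, and rna26092 makes up most of AQP7 in every animal.

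The 5′ portion of LIPE overlaps LOC100849237, a gene of the opposite strand at positions 50881186 to 50895568, whose reference transcript was listed in Luxi 3 only, at 0.0975 FPKM. All transcripts listed opposite LIPE, most of them unnamed and of a single exon, summed to 1.80, 1.94 and 1.65 FPKM in Shandong black 1 to 3 and to 0.510, 3.32 and 3.49 in Luxi 1 to 3. The Luxi animals thus held both the lowest sum and the highest. Most of these fragments lie at different positions, so the sum is not the level of 1 transcript. Set against LIPE itself it came to 23.1 to 27.7% in Shandong black and to 48.6, 114 and 179% in Luxi 1 to 3, against at most 12.5% at MGLL, 9.16% at G0S2, 2.24% at PNPLA2, 1.46% at AQP7 and none listed at ABHD5. StringTie was run by the submitters with strand set, but the labels name an Illumina TruSeq RNA kit without saying whether it keeps strand. If it did not, reads of LIPE and of the opposite strand cannot be told apart.

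MGLL, the lipase of the last step, lies at chr22:59737137-59826846 on the plus strand. Its FPKM was 8.52, 8.77 and 9.99 in Shandong black 1 to 3 and 11.9, 11.4 and 12.02 in Luxi 1 to 3. Every Luxi animal was above every Shandong black animal, and MGLL spanned the smallest log2 range over the 6 animals of all members, 0.45. Means were 9.10 ± 0.786 and 11.8 ± 0.357 (SD, n = 3 each). The log2 fold change of 0.34 had a 95% confidence interval from -0.06 to 0.74 and did not pass the test (limma adjusted p = 0.289). In TPM, which scales transcript levels to a fixed total per library, the MGLL ranges overlapped, with 22.9 to 26.1 in Shandong black and 25.5 to 36.5 in Luxi. The MGLL value was divided between transcripts rna63133, at 42.0 to 64.2%, and rna63134, at 33.0 to 56.3% of the FPKM.

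AQP7, the glycerol channel, had the highest FPKM of the set in every animal. It lies at chr8:75135985-75154407 on the minus strand, and AQP3, the nearest channel gene of the same family, begins 40290 bases away. The FPKM of AQP7 was 129, 68.7 and 107 in Shandong black 1 to 3 and 37.2, 45.2 and 70.4 in Luxi 1 to 3. Shandong black 2 lay just under Luxi 3, and no other pair of animals crossed. Means were 101.7 ± 30.5 and 50.9 ± 17.3 (SD, n = 3 each), with a log2 fold change of -0.99 (SE 0.35, 95% confidence interval -1.81 to -0.16), which did not pass the test (limma adjusted p = 0.165). In TPM and after size factors the AQP7 ranges did not overlap, with a TPM of 179.6 to 356 in Shandong black and 102 to 149 in Luxi.

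Transcript rna26092 of AQP7, with 8 exons, carried 89.0 to 91.4% of its FPKM in Shandong black and 94.97 to 97.4% in Luxi. The other 5 transcripts, which share a 3′ end further downstream, summed to 13.1, 5.93 and 11.8 FPKM in Shandong black 1 to 3 and to 1.87, 1.24 and 1.80 in Luxi 1 to 3. Summed, these longer forms were thus lower in all Luxi animals than in all Shandong black animals, by level and by share. Singly they differed: rna26089, a minor form, had 1.64, 0.181 and 0.240 FPKM in Luxi 1 to 3 and at most 0.0657 in Shandong black. The levels of rna26087 and rna26088 overlapped, and only rna26090 and rna26091 were lower in every Luxi animal. For rna26092 itself the levels were 116, 62.8 and 95.5 FPKM against 35.4, 43.9 and 68.6, and overlapped. The transcript levels of AQP7 were not tested.

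By mean FPKM, a scale per length on which genes can be compared, the order of levels was AQP7, PNPLA2, MGLL, LIPE, ABHD5 and G0S2 in both breeds. The first 3 places held in all 6 animals. In Luxi the ranges of LIPE and ABHD5 overlapped, and ABHD5 had the higher FPKM in Luxi 1 and Luxi 3. In Shandong black LIPE stood above ABHD5 in all 3 animals, and the ranges of ABHD5 and G0S2 overlapped.

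Ratios within an animal compared neighbouring steps of the pathway without reference to the other genes. The log2 ratio of LIPE to PNPLA2 was -2.20, -2.34 and -2.37 in Shandong black 1 to 3 and -4.05, -3.67 and -3.44 in Luxi 1 to 3. LIPE was thus lower relative to the lipase before it in every Luxi animal, by a difference of -1.42. The log2 ratio of MGLL to LIPE was 0.38, 0.33 and 0.48 in Shandong black and 3.51, 1.97 and 2.62 in Luxi, a difference of 2.30. The FPKM of MGLL was thus 1.25 to 1.40 times that of LIPE in Shandong black muscle and 3.91 to 11.4 times in Luxi muscle. Each of these differences had an exact two-sided permutation p of 0.1, the smallest that 3 against 3 animals can give, and an adjusted p of 0.167 over the 5 ratios. For MGLL to LIPE the test adds nothing to the single genes. MGLL was higher and LIPE lower in every Luxi animal than in every Shandong black animal, which fixes that p.

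The ratios of the PNPLA2 cofactors to PNPLA2 overlapped between breeds. For G0S2 to PNPLA2, with 0.1 FPKM added to both, the log2 ratio was -4.77, -3.56 and -3.91 in Shandong black 1 to 3 and -4.50, -7.34 and -5.93 in Luxi 1 to 3 (difference -1.84, exact permutation p = 0.2, adjusted p = 0.25). Luxi 1 lay within the Shandong black range, and the other Luxi animals were below it. With 1 FPKM added to both the difference was -0.67, and it ranged from -2.55 without Luxi 1 to -1.13 without Luxi 2. For ABHD5 to PNPLA2 the difference was 0.25 (exact permutation p = 0.8, also after adjustment).

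LIPE was also set against the sum of the adipocyte markers. The log2 ratio was -4.83, -4.08 and -4.47 in Shandong black 1 to 3 and -2.77, -2.53 and -3.46 in Luxi 1 to 3. Relative to this sum LIPE was higher in every Luxi animal, by 1.54 on the log2 scale (exact permutation p = 0.1, adjusted p = 0.167). The study had named 4 of the 9 markers from these same animals, ADIPOQ and FABP4 among them. The sum was thus not chosen independently of its lower level in Luxi, and the p-value is no independent evidence. Most of the sum is ADIPOQ and FABP4 in every animal but Luxi 1. There they had 0.576 and 0.956 FPKM of a sum of 7.14, and CFD (2.74) and PPARG (2.12) were the largest parts. The direction does not hold for every marker. By ratio of mean FPKM, Shandong black over Luxi, 7 of the 9 markers differed more than LIPE (3.51), but PPARG (2.48) and CFD (1.96) differed less.

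**Figure D3:**
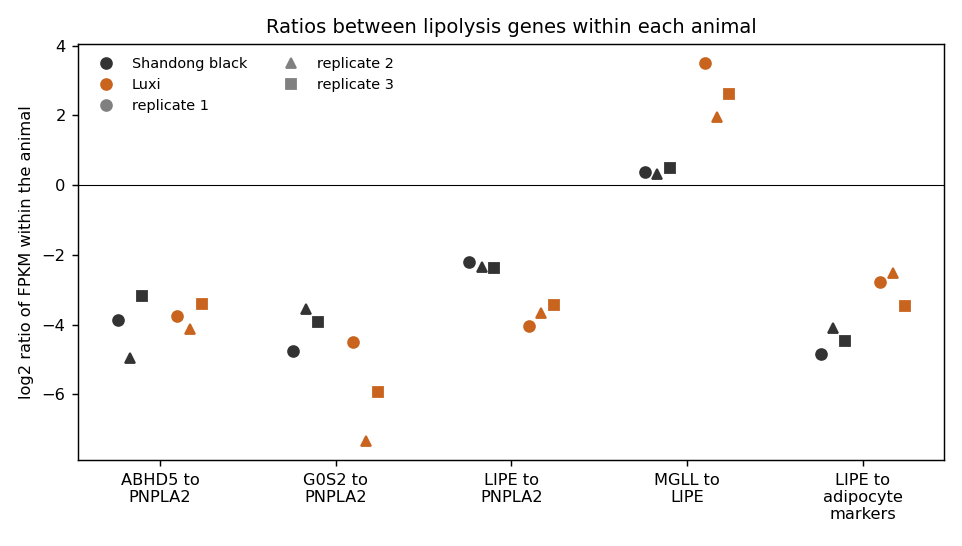
Log2 ratio of FPKM within each animal (vertical axis) for the 5 ratios on the horizontal axis, in Shandong black (grey) and Luxi (orange) cattle, with symbols for replicate numbers. LIPE lies lower against PNPLA2 and higher against the summed adipocyte markers in all 3 Luxi animals, and both ratios of PNPLA2 cofactors overlap.

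Beyond the set, the coat proteins of the lipid droplet, which control access of the lipases to triglyceride, contained 3 called genes of 7 tested, all lower in Luxi. Of all genes tested, 0.951% were called as lower. PLIN1, which holds ABHD5 at the droplet until lipolysis is stimulated, fell by 3.06 on the log2 scale (limma adjusted p = 0.00704). PLIN2 fell by 2.19 (adjusted p = 0.00813, limma) and CIDEC, which enlarges droplets, by 2.78 (adjusted p = 0.0216, limma). HILPDA, another inhibitor of PNPLA2, stood at -1.20 and PLIN3 at -0.87 without passing. The median log2 fold change of the 7 was -1.20, against 0.13 over all genes. The study had named 3 of the 9 genes on this list from these animals, so the list is not independent evidence of direction, and PLIN1 and CIDEC are adipocyte markers as well. Without Shandong black 1, or without Shandong black 3, PLIN1 was the 1 coat gene still called. CIDEC was also not called without Luxi 2, without a filter on FPKM or with a pseudocount of 0.1 (limma adjusted p = 0.0682, 0.0678 and 0.0591).

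Among 14 other lipid hydrolases tested, none was called by limma. Only 1, LPL, had an unadjusted p under 0.05 in limma, against 21.8% of all genes tested. LPL, which releases fatty acids from lipoproteins in the capillary, had a log2 fold change of 0.85 and LIPG, the endothelial lipase, one of 1.32. At the other end were ABHD12 at -0.37 and LIPA, the lysosomal lipase, at -0.13. The median was 0.14, close to that of all genes. On reference transcripts alone DAGLB was called as higher in Luxi, with a log2 fold change of 1.28. With assembled transcripts included, as in the main fit, DAGLB stood at 0.04 and its ranges overlapped.

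The hormonal control of lipolysis was represented by 20 tested genes, of which 1 was called, against 2.48% of all genes tested. Of the 20, 5 were lower and 1 was higher in Luxi with an unadjusted p under 0.05 in limma. Such a p was found for 21.8% of all genes tested. PTGER3, a prostaglandin E receptor that lowers cyclic AMP, had FPKM of 1.84, 1.17 and 1.79 in Shandong black 1 to 3. It was not listed in Luxi 1 and stood at 0.180 and 0.0494 in Luxi 2 and 3. PTGER3 fell by 1.27 on the log2 scale (limma adjusted p = 0.0263), the value being -3.37 with a pseudocount of 0.1, and the call was lost without Shandong black 1 or 3 or without Luxi 2 or 3. NPR3, the clearance receptor of natriuretic peptides, stood at -1.70 and GK, which returns glycerol to glycerol 3-phosphate, at -0.94, and the largest positive values were 1.29 for IRS1 and 0.62 for GNAI3. None of these 4 passed. The median of the 20 was -0.00329, and the study had named 4 of the 28 genes on the list, PTGER3 among them. PRKACA, a catalytic subunit of the kinase that activates LIPE, had 19.4 to 22.3 FPKM in Shandong black and 16.7 to 28.5 in Luxi.

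Triglyceride synthesis, the opposite reaction, had 9 tested genes and no call in limma. An unadjusted p under 0.05 in limma was found for 3 of them, against 21.8% of all genes tested. GPAT3 stood at -2.19 and DGAT2, which adds the last fatty acid, at -1.002, whereas LPIN1 stood at 0.79 and AGPAT2 at 0.48. With size factors GPAT3 was called (-2.31, limma adjusted p = 0.0495). Without Shandong black 2 GPAT3 was likewise called, and without Luxi 1 DGAT2 was.

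**Figure D4:**
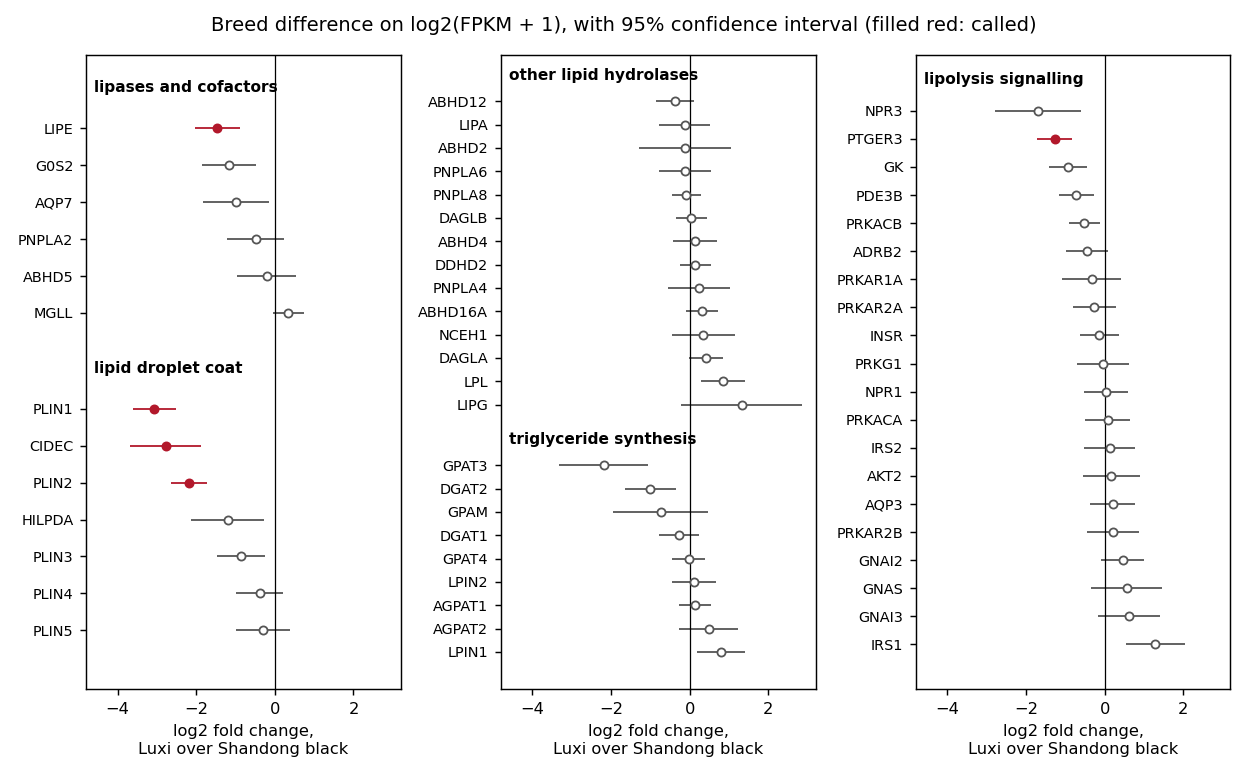
Log2 fold change of Luxi over Shandong black on log2(FPKM + 1) (horizontal axis) with 95% confidence intervals from limma, for the 6 listed members and the tested genes of 4 related lists (vertical axis). Filled red points are called; they are LIPE among the members, PLIN1, PLIN2 and CIDEC among droplet coat genes and PTGER3 among signalling genes, all lower in Luxi.

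The genes whose profile over the 6 animals came closest to a member were found by the root mean square difference of centred log2(FPKM + 1), for the 5 members that spanned at least 1 on that scale. For LIPE they were RHOBTB3 (0.17), the antioxidant enzyme GPX3 (0.23) and EMX2 (0.24). For AQP7 they were SARS (0.10), BZW2 (0.10) and PPP1R14C (0.12). For G0S2 the nearest gene was DGAT2 (0.13), followed by UBXN4 (0.19) and ABCG2 (0.21). For PNPLA2 they were ELAVL1 (0.09), MAP2K1 (0.11) and MAP3K4 (0.12). For ABHD5 the nearest was PRKAR1A (0.11), a regulatory subunit of the cyclic AMP-dependent kinase, then DNLZ (0.13) and LOC112446882 (0.14).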

How the data were processed

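Total RNA of longissimus dorsi muscle was sequenced from 6 animals, 3 per breed, grouped by the breed in the labels. The authors trimmed reads with Fastp, aligned them to ARS-UCD1.2 with HISAT and assembled transcripts with StringTie (1.3.3b per the file headers, guided by the NCBI annotation, with strand set). The deposited files list coverage, FPKM and TPM per transcript of each library. They hold no read counts, so precision is given only as aligned bases (coverage times length).

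Gene FPKM was the sum over reference transcripts to which unnamed assembled transcripts were added if 50% or more of their bases fell on exons of that gene and strand. Genes whose mean FPKM reached 1 in either breed were fitted on log2(FPKM + 1) with limma 3.58.1 (lmFit, eBayes with trend, R 4.3.3) and p-values were adjusted by Benjamini-Hochberg over all 9779 genes. The pseudocount of 1 understates changes of low genes. The procedure was tested on simulated data. Within-animal ratios were compared by exact two-sided permutation tests. Replicates are separate animals.

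The alternatives were a pseudocount of 0.1, other filters, TPM, size factors, quantile normalization, eBayes without trend, reference transcripts only, no minimum fold, a replicate block, and leaving out each animal. The genes named were the 7 members, called genes of the 4 related lists and their 2 largest rises and falls, cell type markers, and the 3 nearest profiles. LOC100849237, PRKACA, MYL3 and DPT, the longer transcripts of LIPE and AQP7, and genes called only under an alternative were added after their values were seen. Members and lists were chosen with earlier results of these data known.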

Additional observations from a re-analysis of the deposited data

How the results depend on the processing

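No member was called (0) without a filter on FPKM, where the LIPE adjusted p from limma was 0.0837, or with the replicate block, where it was 0.0527; leaving out each animal gave 0 to 1 called members. Of the 9 alternatives of scale, filter or fit, these included, LIPE was called in 7, with a log2 fold change between -1.87 and -1.46 in all 9. On leaving out each animal, the log2 fold change of ABHD5 ranged from -0.50 to 0.12, turning without Shandong black 3, and the log2 ratio of ABHD5 to PNPLA2 from -0.23 to 0.66, turning without Shandong black 2. The droplet coat list had 2 calls with a pseudocount of 0.1 or no filter and 1 to 3 on leaving out each animal, the hydrolase list 1 on reference transcripts only, and the synthesis list 1 with size factors, 1 with quantile normalization and 0 to 1 on leaving out each animal. The signalling list had 0 calls with the filter on the mean of all 6 animals and with the replicate block, 2 in TPM (with IRS1), 2 with size factors and 2 with quantile normalization (both with GK), and 0 to 3 on leaving out each animal. Over all genes, 243 were called (93 lower, 150 higher in Luxi), against 65 with no filter, 156 on reference transcripts, 134 with the replicate block and 3 to 590 on leaving out an animal. The split turned to 146 lower and 116 higher with size factors and to 162 and 125 with quantile normalization. Same-numbered animals of the breeds had correlated deviations of 0.0785 to 0.0883, each the highest for its number, but the labels do not tie the numbers, so the block is no paired design. The G0S2 value in Luxi rests on few aligned bases and moved with the pseudocount.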
